A study of Homo sapiens with 9 samples.

Results

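The genes described are 41 targets of the let-7 microRNA family, out of 19706 usable genes in the deposited table. They are targets named in the field, apart from the MYC, LIN28, IGF and cyclin D genes, and were matched by symbol; the rule of membership uses no measured value. Messenger RNA was sequenced in 3 human neuroblastoma cell lines, with 3 libraries a line. Kelly and BE(2)C have MYCN status amplified; SH-SY5Y is labelled non-amplified. All cells were untreated, grown in the same mix of DMEM/F12 and MEM with serum, and collected before confluence. BE(2)C and SH-SY5Y are clones of older lines. Only 1 line lacks the amplification, so an effect of MYCN status and one of the line itself cannot be told apart. The labels do not say whether the libraries of a line came from separate cultures, so each p-value measures only how these libraries vary, and that variation may be technical.

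let-7 is a family of small RNAs that accumulates as cells differentiate. Bound to an Argonaute protein, a let-7 RNA pairs through its seed, bases 2 to 8 from its 5′ end, with sites in the 3′ untranslated region (UTR) of a messenger RNA, which lowers the stability or translation of that RNA. Its known targets include oncofetal chromatin proteins such as HMGA2, RAS genes and cell cycle genes. In neuroblastoma the RNA-binding protein LIN28B blocks let-7 maturation, and the MYCN messenger RNA itself carries let-7 sites. Mature let-7 levels were not analysed here.

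The mature family members below, from RefSeq on GRCh38.p14, share the seed that all the counted sites pair with, shown in capitals.
hsa-let-7a-5p: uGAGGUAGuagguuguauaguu
hsa-let-7d-5p: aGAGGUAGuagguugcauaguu
hsa-let-7i-5p: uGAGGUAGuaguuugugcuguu
hsa-miR-98-5p: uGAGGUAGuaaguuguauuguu
Outside the seed, let-7d-5p and miR-98-5p each differ from let-7a-5p at 2 positions, counted over the whole RNA, and let-7i-5p at 4.

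The sites below are those of some of the members that hold a match, with the bases that pair with the seed in capitals. They do not cover all members with large changes. DLC1, STARD13 and MAP4K4 had no match in the transcript used, and GATM had 1 that is not shown. The sites lie in the 3′ UTR of a GENCODE transcript and are given in DNA letters on the gene's own strand of GRCh38. HMGA2 is shown as the textbook target, IGDCC3 and HIC2 as members higher in both amplified lines, NR6A1 as the member with the largest log2 difference between the amplified lines, and TGFBR1 and SLC20A1 as members lower in both amplified lines. A final capital A marks sites in which the match is followed by A.
HMGA2 chr12:65963299-65963320 (+): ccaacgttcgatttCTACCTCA
HMGA2 chr12:65964534-65964555 (+): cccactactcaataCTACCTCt
HMGA2 chr12:65964946-65964967 (+): tgacttgcaaagacCTACCTCc
HMGA2 chr12:65965799-65965820 (+): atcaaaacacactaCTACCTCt
IGDCC3 chr15:65328450-65328471 (-): ttggctctcagcacCTACCTCA
IGDCC3 chr15:65328368-65328389 (-): gcccgaatgcactcCTACCTCA
IGDCC3 chr15:65328217-65328238 (-): gtgaaagaaaatgtCTACCTCA
IGDCC3 chr15:65328140-65328161 (-): tgcccacagcccacCTACCTCt
HIC2 chr22:21446940-21446961 (+): gggtcccagcccgtCTACCTCc
HIC2 chr22:21447272-21447293 (+): ggtgaccccaccgcCTACCTCt
HIC2 chr22:21447887-21447908 (+): cttctgaccttttgCTACCTCt
HIC2 chr22:21450883-21450904 (+): aggaccccctccccCTACCTCA
NR6A1 chr9:124522310-124522331 (-): gttgacaaagatgaCTACCTCA
NR6A1 chr9:124521339-124521360 (-): aggggggctttaaaCTACCTCA
NR6A1 chr9:124521311-124521332 (-): taatggcccggctgCTACCTCt
NR6A1 chr9:124517948-124517969 (-): aaagaaaaaaaaaaCTACCTCt
NR6A1 chr9:124517416-124517437 (-): acccaggccctctgCTACCTCc
TGFBR1 chr9:99149366-99149387 (+): ggaggtcaattgttCTACCTCA
SLC20A1 chr2:112663770-112663791 (+): ccatgttcatttgtCTACCTCt
The same 7-base match, which the search fixed, thus stands in members that were higher and in members that were lower in the amplified lines.

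Levels are given as scaled TPM: the deposited values (TPM, a share of transcripts adjusted for their length) taken off their log scale, rescaled to the total over genes, and divided by a trimmed-mean factor per library. Errors of levels are SD over 3 libraries. A fold change is a difference of log2(scaled TPM + 1) with its standard error (SE), and a gene is called when its limma p-value, adjusted by Benjamini-Hochberg over 13076 tested genes, is under 0.05 (two-sided). ERCC spike-ins, synthetic RNAs added to the samples, took 83.7% to 90.6% of the deposited total, and mitochondrial genes took 24.5% to 35.3% of the gene total in BE(2)C against 16.5% to 19.8% in the other lines. Of 61 spike-ins, on deposited values centred on each library's median spike-in, 0 were called in BE(2)C vs SH-SY5Y, 49 in Kelly vs SH-SY5Y and 53 in Kelly vs BE(2)C. Their shifts from the median spike-in reached 1.42 on the log2 scale where Kelly was compared and 0.18 in BE(2)C vs SH-SY5Y. Library depth is unknown. MYCN, the reference for line status, stood at 27.3 ± 1.01 scaled TPM in SH-SY5Y, 6050.2 ± 1088 in BE(2)C and 5969.6 ± 77.6 in Kelly. The summed level of 10 sympathoadrenal markers was 5580 to 5772 in SH-SY5Y, 6972 to 7911 in BE(2)C and 8960 to 10614 in Kelly. The leukocyte markers PTPRC and CD3E were at 0 in all SH-SY5Y and BE(2)C libraries and CD3E at 0 in Kelly. The fibroblast markers COL1A1, DCN and LUM summed to 6.71 to 10.9 in SH-SY5Y, 12.7 to 33.4 in BE(2)C and 3.41 to 4.80 in Kelly. The part of these levels in the results was not tested. In bulk RNA, fewer cells with a transcript and less of it per cell cannot be told apart.

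Of the 41 members, 37 reached 1 scaled TPM in at least 3 libraries and were tested. Relative to SH-SY5Y, BE(2)C had 17 of these higher (45.9%) and 9 lower (24.3%), and 11 were not called. Over all tested genes 59.4% were called in that comparison, 28.6% higher and 30.7% lower. In Kelly, 22 were higher than in SH-SY5Y (59.5%, where all genes gave 28.1%), 6 were lower (16.2%, where all genes gave 27.2%) and 9 were not called; 55.3% of all genes were called there in either direction. Between the amplified lines, 15 were higher in Kelly (40.5%, where all genes gave 27.9%), 6 were higher in BE(2)C (16.2%, where all genes gave 24.6%) and 16 were not called, with 52.5% of all genes called. Changes of at least 2-fold were called for 6 members higher (16.2%, genes 12%) and 5 lower (13.5%, genes 16.6%) in BE(2)C vs SH-SY5Y. In Kelly vs SH-SY5Y there were 13 higher (35.1%, genes 12.1%) and 4 lower (10.8%, genes 13.4%), and in Kelly vs BE(2)C 7 higher (18.9%, genes 12.8%) and 1 lower (2.70%, genes 9.54%). The members that passed the level filter are not all members, and those low in 2 lines could pass only through the third. IGDCC3, STARD13 and HMGA2 were under 1 in every SH-SY5Y library and passed only through the amplified lines. GATM passed only through SH-SY5Y, GDF6 without BE(2)C and HRAS without Kelly. The direction of these members is thus tied to the filter. Both comparisons with SH-SY5Y use the same 3 SH-SY5Y libraries, so their counts are not independent of each other.

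The median member stood 0.42 above 0 in BE(2)C vs SH-SY5Y on the log2 scale, 0.56 in Kelly vs SH-SY5Y and 0.09 in Kelly vs BE(2)C. The medians of all tested genes were -0.04, -0.0047 and 0.02. These directions depend on how libraries were scaled. With rescaling to gene totals only, the members' median in BE(2)C vs SH-SY5Y was -0.04 while that of all genes was -0.44; on the values as deposited, with the spike-ins in the total, the members' medians were -0.15 and -0.04 against SH-SY5Y and those of all genes -0.35 and -0.43. Relative to the median of all genes, members stood higher under each of the 5 scalings tried: by 0.19 to 0.46 in BE(2)C vs SH-SY5Y and by 0.39 to 0.56 in Kelly vs SH-SY5Y, and by 0.01 to 0.10 in Kelly vs BE(2)C. For BE(2)C, 25 of 37 members lay above the median gene in the comparison with SH-SY5Y (23 to 25 over the 5 scalings), and for Kelly 27 (25 to 28).

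**Figure D1:**
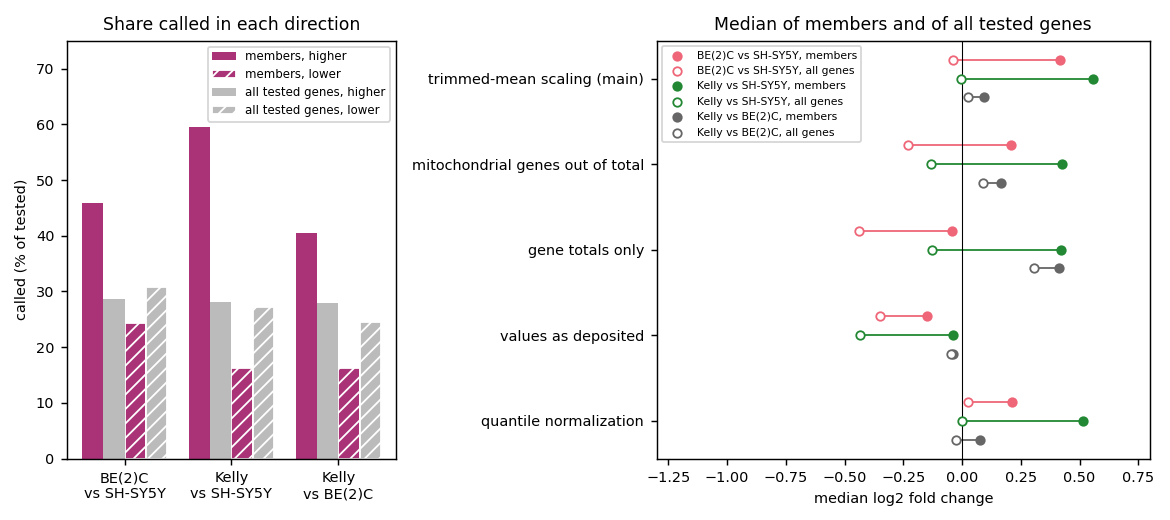
Left, the share of the 37 tested members and of all 13076 tested genes called higher or lower in each comparison (bars, percent); right, the median log2 fold change of members (filled) and of all genes (open) under 5 scalings. The filled point lies to the right of the open one in every pair, and both lie below 0 under some scalings.

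Adding MYCN to the set changed these numbers little. With it, 18 members were higher and 9 lower of 38 in BE(2)C vs SH-SY5Y, with a median of 0.43, and 23 were higher and 6 lower in Kelly vs SH-SY5Y, with a median of 0.60. In Kelly vs BE(2)C 15 were higher and 6 lower, with a median of 0.08. MYCN is not among the 41, and the counts above do not include it. The 14 targets in the MYC, LIN28, IGF and cyclin D groups, MYCN among them, had 11 tested genes, of which 8 were higher and 2 lower in each amplified line against SH-SY5Y, with medians of 1.34 in BE(2)C and 0.79 in Kelly. The members described here had smaller medians than that list, a difference that was not tested. Between Kelly and BE(2)C that list had 3 genes higher, 3 lower and a median of -0.0026.

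The transcription and chromatin genes are the largest group among the members, with 16 of 17 tested. Counts by role are those with the trimmed-mean scaling. Against SH-SY5Y, Kelly had 11 higher (68.8%, where all genes gave 28.1%) and 1 lower (6.25%, where all genes gave 27.2%). In BE(2)C vs SH-SY5Y 7 were higher (43.8%, genes 28.6%) and 3 lower (18.8%, genes 30.7%), and in Kelly vs BE(2)C 9 were higher (56.3%, genes 27.9%) and 1 lower (6.25%, genes 24.6%). The same shares of all genes are the background for the counts of the other roles. HMGA2 (chr12:65824131-65966295), an architectural protein of AT-rich DNA that is normally fetal, was barely detected in any line. Its scaled TPM was 0.696, 0.339 and 0.628 in the SH-SY5Y libraries, 1.15, 0.764 and 3.36 in BE(2)C and 1.62, 2.89 and 2.20 in Kelly. Every library of the amplified lines was above those of SH-SY5Y, with 1 BE(2)C library above all of Kelly. The log2 fold change was 1.05 ± 0.32 in Kelly vs SH-SY5Y (adjusted p = 0.0214). In BE(2)C vs SH-SY5Y it was 0.72 ± 0.32, not called (adjusted p = 0.0833). HMGA2 was called there with quantile normalization (1.09, adjusted p = 0.0142) and without BE(2)C replicate 2 (0.98, adjusted p = 0.0314). The call in Kelly was lost on deposited values (0.18, adjusted p = 0.0951). It was also lost without SH-SY5Y replicate 2, Kelly replicate 2 or Kelly replicate 3, with adjusted p from 0.00281 to 0.0707 over the left-out libraries.

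HMGA1, the paralog of HMGA2, was abundant: 304 ± 11.1 in SH-SY5Y, 459 ± 40.1 in BE(2)C and 679 ± 34.3 in Kelly. Relative to SH-SY5Y it was higher in BE(2)C by 0.59 ± 0.07 (adjusted p = 1.11e-04) and in Kelly by 1.15 ± 0.07 (adjusted p = 1.60e-06). The first difference was not called with gene totals only (0.13) or on deposited values (0.01). HMGA1 has 7 named pseudogenes, E2F6 4, RRM2, NAP1L1 and SLC20A1 3 each and CCNJ 2, and since how shared reads were counted is not known, the values of these 6 members are uncertain. The same holds for the 15 members that an annotated gene overlaps on the opposite strand, since no source used here says whether reads were counted by strand. These are HMGA2, ARID3A, STARD13, BACH1, COIL, THBS1, NR6A1, GATM, ZNF512B, CCNJ, DUSP1, PRTG, DLC1, YOD1 and RDX, and STARD13, BACH1 and RRM2 are also overlapped on their own strand. HIC2 (chr22:21417404-21451463), a zinc finger repressor, showed the same order more steeply. Its libraries gave 11.7, 12.9 and 14.2 scaled TPM in SH-SY5Y, 32.2, 39.96 and 37.9 in BE(2)C and 89.2, 94.9 and 86.3 in Kelly. No 2 lines overlapped. HIC2 was higher in BE(2)C by 1.43 ± 0.11 (adjusted p = 4.62e-06), in Kelly by 2.71 ± 0.11 (adjusted p = 1.03e-07), and in Kelly than in BE(2)C by 1.28 ± 0.11 (adjusted p = 1.39e-05), under all 5 scalings in each case.

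The paired ARID genes, which encode DNA-binding proteins of AT-rich sequence, were both highest in Kelly. ARID3A was at 15.3 ± 1.25 in SH-SY5Y, 26.6 ± 2.84 in BE(2)C and 49.4 ± 5.14 in Kelly. ARID3B was at 25.2 ± 1.95, 27.4 ± 2.83 and 67.8 ± 0.912 in the same order. ARID3A was thus called in all 3 comparisons (in BE(2)C vs SH-SY5Y not with gene totals only, nor on deposited values) and ARID3B only in the ones with Kelly, by 1.39 ± 0.10 against SH-SY5Y (adjusted p = 3.66e-06) and 1.28 ± 0.10 against BE(2)C (adjusted p = 7.90e-06). ARID3B had 0.11 ± 0.10 in BE(2)C vs SH-SY5Y (adjusted p = 0.374), which was -0.33 and called lower with gene totals only, and -0.36 and called lower on deposited values. The zinc finger genes ZNF512B and PLAGL2 followed the order of HIC2. ZNF512B stood at 41.3 ± 2.85 scaled TPM in SH-SY5Y, 57.96 ± 2.46 in BE(2)C and 125 ± 7.18 in Kelly. PLAGL2 stood at 19.9 ± 1.14, 36.3 ± 0.716 and 44.04 ± 4.38. Both were called higher in each amplified line with the trimmed-mean scaling. ZNF512B was not called in BE(2)C vs SH-SY5Y with gene totals only (0.03) or on deposited values (-0.07). PLAGL2 was called in neither amplified line against SH-SY5Y on deposited values. Its higher level in Kelly than in BE(2)C (0.27 ± 0.10, adjusted p = 0.0465) was lost in 8 of the 9 fits that left out 1 library, all but that without Kelly replicate 1.

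With the trimmed-mean scaling, 3 members of this group were called lower in BE(2)C than in SH-SY5Y but not in Kelly. NR6A1 (chr9:124517275-124771310) encodes an orphan nuclear receptor that represses pluripotency genes. Its libraries read 6.22, 5.27 and 4.70 in SH-SY5Y, 1.07, 1.82 and 1.45 in BE(2)C and 15.1, 14.98 and 16.9 in Kelly. The 3 lines were fully apart, with BE(2)C lowest and Kelly highest. Its log2 fold change was -1.39 ± 0.18 in BE(2)C vs SH-SY5Y (adjusted p = 1.37e-04), 1.39 ± 0.18 in Kelly vs SH-SY5Y (adjusted p = 1.66e-04) and 2.78 ± 0.18 in Kelly vs BE(2)C (adjusted p = 2.51e-06). E2F2 (chr1:23506430-23531220), a transcription factor for entry into S phase, had the same order. Its scaled TPM was 45.5, 43.5 and 40.7 in SH-SY5Y, 19.5, 24.6 and 26.96 in BE(2)C and 66.4, 63.9 and 61.7 in Kelly, again with no overlap between lines. It was lower in BE(2)C than in SH-SY5Y, at -0.85 ± 0.12 on the log2 scale (adjusted p = 2.15e-04) and higher in Kelly than in BE(2)C by 1.41 ± 0.12 (adjusted p = 1.19e-05). Its higher level in Kelly than in SH-SY5Y, 0.56 ± 0.12 (adjusted p = 0.00319), turned to -0.13 on deposited values. TET3, which oxidises methylated cytosine, stood at 38.2 ± 1.02 in SH-SY5Y, 23.6 ± 1.66 in BE(2)C and 36.99 ± 2.31 in Kelly, and was lower in BE(2)C than in either other line. On deposited values TET3 was also called lower in Kelly than in SH-SY5Y (-0.64, adjusted p = 0.00143).

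PBX3 (chr9:125747345-125967377), a homeodomain partner of HOX proteins, was the member of this group called lower in Kelly. Its libraries gave 32.9, 34.2 and 36.2 in SH-SY5Y, 35.1, 32.7 and 37.5 in BE(2)C and 16.7, 23.1 and 22.5 in Kelly. Kelly lay below both other lines, which overlapped each other. The difference was -0.72 ± 0.13 against SH-SY5Y (adjusted p = 0.00137) and -0.74 ± 0.13 against BE(2)C (adjusted p = 0.00122). PBX3 was also called lower in BE(2)C than in SH-SY5Y with gene totals only (-0.42, adjusted p = 0.0472) and on deposited values (-0.46, adjusted p = 0.0198). NAP1L1, a histone chaperone, was at 178 ± 21.5 in SH-SY5Y, 311 ± 25.2 in BE(2)C and 285 ± 28.3 in Kelly. COIL, the scaffold of Cajal bodies, was at 41.3 ± 1.55, 65.8 ± 3.82 and 70.2 ± 3.25. Both were called higher in each amplified line, except that neither was called on deposited values, where NAP1L1 had -0.03 in Kelly, nor in BE(2)C with gene totals only.

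3 further tested genes of this group were called in no comparison with the trimmed-mean scaling, though BACH1, ONECUT2 and SMARCAD1 each passed in some fits with 1 library left out and under other scalings. BACH1, a repressor regulated by haem, had 18.7 ± 2.40 in SH-SY5Y, 26.4 ± 7.38 in BE(2)C and 26.5 ± 2.81 in Kelly. ONECUT2, a cut homeodomain factor, had 15.4 ± 0.350, 18.7 ± 1.64 and 18.7 ± 2.83. SMARCAD1, a chromatin remodeller, had 64.4 ± 2.22, 61.3 ± 2.75 and 56.8 ± 2.71. SMARCAD1 was called lower in BE(2)C than in SH-SY5Y with gene totals only (-0.52, adjusted p = 0.00222), on deposited values (-0.58, adjusted p = 0.00193) and with mitochondrial genes out of the total (-0.28, adjusted p = 0.0113), and lower in Kelly than in SH-SY5Y under all 4 other scalings (-0.80 to -0.26). With quantile normalization BACH1 was called higher in both amplified lines (0.56 in each) and ONECUT2 in BE(2)C (0.41) against SH-SY5Y. E2F6, a repressor of the E2F family, was under the filter, with libraries at 0.0483, 0.174 and 0.0245 in SH-SY5Y, 0.000760, 0.0232 and 0.636 in BE(2)C and 1.74, 0.00394 and 0.000247 in Kelly. A single library decides the mean of each line.

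**Figure D2:**
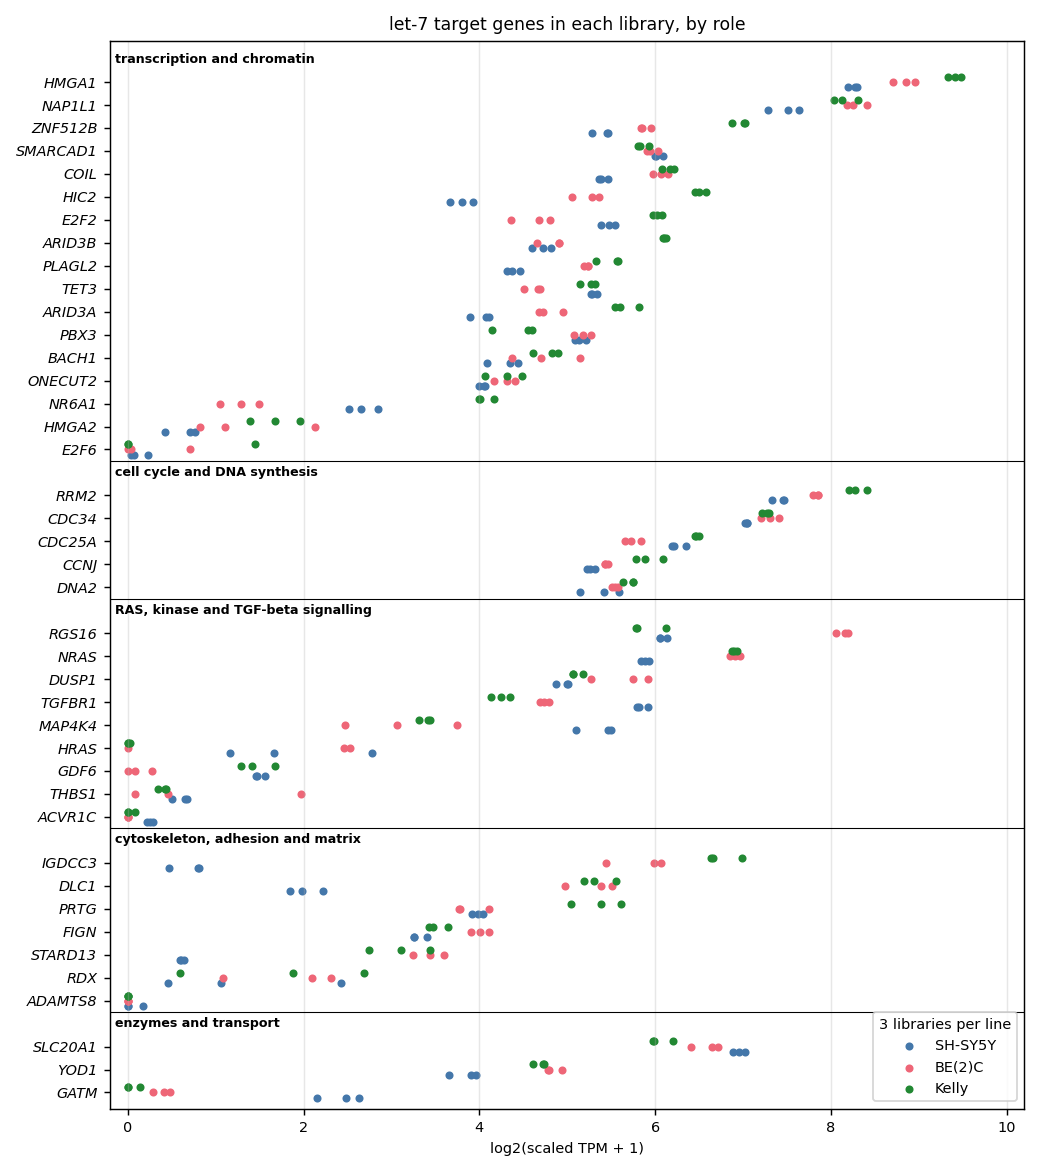
Level of each of the 41 members in each of the 9 libraries (points, log2(scaled TPM + 1)), grouped by role and ordered by mean level. HMGA1 reaches 713 scaled TPM in Kelly while E2F6, THBS1, ACVR1C and ADAMTS8, the members under the filter, reach no more than 2.93 in any library; SH-SY5Y points lie left of both other lines for IGDCC3, DLC1 and STARD13 and right of them for TGFBR1, MAP4K4 and GATM.

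The 5 cell cycle and DNA synthesis members were all called higher in Kelly than in SH-SY5Y with the trimmed-mean scaling. The rise was at most 0.88 ± 0.07, the value of RRM2. On deposited values all but RRM2 had values below 0. There CDC25A (adjusted p = 0.00623), CDC34 (adjusted p = 0.00214) and DNA2 (adjusted p = 0.0495) were called lower, and CCNJ and RRM2 were not called. CDC25A, CDC34 and DNA2 were called in neither direction with gene totals only, quantile normalization or mitochondrial genes out of the total (adjusted p from 0.0526 to 0.795). RRM2, the small subunit of ribonucleotide reductase, stood at 169.9 ± 8.93 scaled TPM in SH-SY5Y, 227 ± 4.77 in BE(2)C and 314 ± 23.3 in Kelly. CDC25A, the phosphatase that activates cyclin-dependent kinases, stood at 75.4 ± 4.83, 52.5 ± 3.39 and 87.8 ± 1.57, so it was lower in BE(2)C than in SH-SY5Y, with a log2 fold change of -0.51 ± 0.08 (adjusted p = 3.10e-04). CDC34, a ubiquitin-conjugating enzyme of the cell cycle, stood at 130.3 ± 1.20, 158 ± 11.04 and 152 ± 4.38. CCNJ, a cyclin, was at 37.5 ± 1.21, 42.5 ± 0.665 and 59.8 ± 6.51, and DNA2, a helicase and nuclease of replication, at 41.1 ± 6.33, 45.7 ± 1.18 and 51.4 ± 2.33. In Kelly vs SH-SY5Y the calls of CDC25A (0.22 ± 0.08, adjusted p = 0.034) and DNA2 (0.32 ± 0.11, adjusted p = 0.0333) were each lost without SH-SY5Y replicate 1 or 2 or Kelly replicate 1 or 2, with adjusted p up to 0.112 and 0.105, and that of CDC25A also without Kelly replicate 3. The direction in Kelly vs SH-SY5Y was the opposite on deposited values for CDC25A (-0.45), CDC34 (-0.47), DNA2 (-0.33) and CCNJ (-0.04), and in BE(2)C vs SH-SY5Y for CDC34 (-0.29), DNA2 (-0.35), CCNJ (-0.33) and RRM2 (-0.15). With gene totals only, CDC34 (-0.19), DNA2 (-0.29), CCNJ (-0.27) and RRM2 (-0.04) were also opposite in BE(2)C vs SH-SY5Y, and CDC34 was so with quantile normalization (-0.02). In that comparison CDC34 was called lower on deposited values (adjusted p = 0.0295) and with gene totals only (adjusted p = 0.0329). DNA2 was called lower there on deposited values (adjusted p = 0.0409). A list of 20 division genes outside the set, such as the MCM genes and MKI67, was counted with the trimmed-mean scaling. In BE(2)C vs SH-SY5Y 15 were higher (75%, genes 28.6%) and 3 lower (15%, genes 30.7%), with a median of 0.47. For Kelly vs SH-SY5Y 13 were higher (65%, genes 28.1%) and 4 lower (20%, genes 27.2%), with a median of 0.43. MCM6 and MCM7 were called lower in both amplified lines, and MKI67 was not called in Kelly vs SH-SY5Y (0.04). In Kelly vs BE(2)C 3 of the 20 were higher (15%, genes 27.9%) and 10 lower (50%, genes 24.6%), where the cell cycle members had 3 higher and 0 lower. The part of division rate in the members' levels was not tested.

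The signalling members were divided. Of 7 tested, 3 were higher and 3 lower in BE(2)C vs SH-SY5Y, and 1 was higher and 3 lower both in Kelly vs SH-SY5Y and in Kelly vs BE(2)C. NRAS, a RAS GTPase upstream of the MAP kinases, was at 58.2 ± 1.90 scaled TPM in SH-SY5Y, 119 ± 4.41 in BE(2)C and 118 ± 2.13 in Kelly. It was higher in BE(2)C by 1.02 ± 0.06 (adjusted p = 7.92e-07) and in Kelly by 1.01 ± 0.06 (adjusted p = 9.86e-07), the second not called on deposited values (adjusted p = 0.0547). HRAS, a RAS GTPase transcribed in most cells, was listed at 2.17, 1.25 and 5.88 in SH-SY5Y, at 4.51, 4.76 and practically 0 in BE(2)C, and at 0, 0.0181 and 0 in Kelly. The libraries of SH-SY5Y alone ranged from 1.25 to 5.88. HRAS, RDX and E2F6 are transcribed in most cells, and no source states how transcripts were joined into genes, so their values at or near 0, and the call of HRAS, are uncertain. Its call as lower in Kelly (adjusted p = 0.0361) was lost with quantile normalization (adjusted p = 0.0627), without a filter (adjusted p = 0.0572) and in 5 of the 9 fits that each left out 1 library (without SH-SY5Y replicate 1 or 3 or any Kelly replicate, adjusted p up to 0.125).

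RGS16 (chr1:182598623-182604408) encodes a protein that switches off G protein alpha subunits. Its libraries gave 69.3, 65.6 and 65.7 in SH-SY5Y, 265, 285 and 291 in BE(2)C and 68.5, 54.4 and 54.1 in Kelly. BE(2)C stood far above the other lines, which overlapped. The log2 fold change was 2.05 ± 0.10 in BE(2)C vs SH-SY5Y (adjusted p = 1.93e-07) and -2.24 ± 0.10 in Kelly vs BE(2)C (adjusted p = 2.35e-07), both called under all 5 scalings. RGS16 was also called lower in Kelly than in SH-SY5Y with gene totals only (-0.32, adjusted p = 0.0180), with mitochondrial genes out of the total (-0.32, adjusted p = 0.0182) and on deposited values (-0.81, adjusted p = 1.74e-05). DUSP1 (chr5:172768090-172771195), a phosphatase of MAP kinases induced by growth signals, had a lesser version of this pattern. Its libraries gave 31.2, 31.00 and 28.4 in SH-SY5Y, 37.7, 59.5 and 52.7 in BE(2)C and 32.4, 32.6 and 35.1 in Kelly, so that BE(2)C was above both lines but spread widely. Relative to SH-SY5Y it was higher in BE(2)C by 0.68 ± 0.15 (adjusted p = 0.00365) and lower in Kelly than in BE(2)C, at -0.54 ± 0.15 (adjusted p = 0.0139). The first was not called with gene totals only (0.23) or on deposited values (0.11), nor the second with gene totals only (-0.23). On deposited values DUSP1 was called lower in Kelly than in SH-SY5Y (-0.46, adjusted p = 0.0127).

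MAP4K4 (chr2:101696850-101894689), a kinase upstream of JNK, and TGFBR1 (chr9:99104038-99154192), the type I receptor of TGF-beta, were both highest in SH-SY5Y. MAP4K4 read 43.1, 44.2 and 33.2 in SH-SY5Y, 7.35, 12.4 and 4.57 in BE(2)C and 9.65, 8.98 and 9.85 in Kelly. All 6 libraries of the amplified lines were below SH-SY5Y, and BE(2)C scattered around Kelly. The log2 fold change of MAP4K4 was -2.26 ± 0.28 in BE(2)C vs SH-SY5Y (adjusted p = 1.09e-04) and -1.96 ± 0.28 in Kelly vs SH-SY5Y (adjusted p = 3.14e-04). TGFBR1 read 54.3, 55.5 and 59.7 in SH-SY5Y, 24.8, 25.7 and 26.6 in BE(2)C and 18.00, 16.5 and 19.4 in Kelly, with no overlap between any 2 lines. Its log2 fold change against SH-SY5Y was -1.10 ± 0.09 in BE(2)C (adjusted p = 9.29e-06) and -1.60 ± 0.09 in Kelly (adjusted p = 9.91e-07). The other members of TGF-beta and BMP signalling were near the floor of the table. GDF6, a BMP ligand, was listed at 1.95, 1.75 and 1.77 in SH-SY5Y, 0.0615, 0.212 and 0 in BE(2)C and 1.45, 1.66 and 2.20 in Kelly, and was called lower in BE(2)C than in either other line, and on deposited values also lower in Kelly than in SH-SY5Y (-0.15, adjusted p = 0.0312). ACVR1C, another type I receptor, and THBS1, a secreted activator of latent TGF-beta, were under the filter. ACVR1C was listed at 0.166, 0.224 and 0.187 in SH-SY5Y, 0 in every BE(2)C library and 0, 0.0593 and 0 in Kelly. THBS1 had 0.416, 0.571 and 0.602 in SH-SY5Y, 0.0586, 2.93 and 0.369 in BE(2)C and 0.266, 0.343 and 0.357 in Kelly.

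The largest log2 differences from SH-SY5Y were in genes of the cytoskeleton and cell adhesion, of which 6 of 7 were tested. Against SH-SY5Y, 4 were higher and 0 lower in each amplified line. IGDCC3 (chr15:65327127-65378040), a transmembrane protein of the immunoglobulin superfamily related to the DCC receptor, was at 0.389, 0.746 and 0.753 scaled TPM in SH-SY5Y, 42.3, 62.2 and 66.1 in BE(2)C and 126, 98.1 and 100.4 in Kelly. It was close to absent in SH-SY5Y and abundant in both others, which did not overlap. The log2 fold change was 5.13 ± 0.19 in BE(2)C (adjusted p = 6.38e-08), 6.06 ± 0.19 in Kelly (adjusted p = 2.87e-08) and 0.93 ± 0.19 in Kelly vs BE(2)C (adjusted p = 0.00291). The ratio of mean scaled TPM to that of SH-SY5Y was 90.3 in BE(2)C and 172 in Kelly, more than the log2 values give, since these include the pseudocount of 1. PRTG (chr15:55611546-55743090), protogenin, is of the same family and lies on the same chromosome. Its libraries gave 14.1, 14.9 and 15.5 in SH-SY5Y, 12.6, 12.7 and 16.2 in BE(2)C and 40.8, 47.8 and 31.9 in Kelly, with Kelly above both other lines. PRTG was higher in Kelly by 1.36 ± 0.16 against SH-SY5Y (adjusted p = 1.02e-04) and 1.46 ± 0.16 against BE(2)C (adjusted p = 7.51e-05). It was called lower in BE(2)C than in SH-SY5Y with gene totals only (-0.53, adjusted p = 0.0285) and on deposited values (-0.46, adjusted p = 0.0173).

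DLC1 and STARD13 are closely related proteins with a START domain that restrain assembly of the actin cytoskeleton. DLC1 (chr8:13083361-13604610) gave 3.66, 2.60 and 2.94 in SH-SY5Y, 30.5, 44.4 and 40.7 in BE(2)C and 46.05, 35.5 and 38.4 in Kelly. Its amplified-line libraries overlapped each other and lay far above SH-SY5Y, by 3.27 ± 0.18 in BE(2)C (adjusted p = 5.00e-07) and 3.33 ± 0.18 in Kelly (adjusted p = 5.12e-07). STARD13 stood at 0.530 ± 0.0222 in SH-SY5Y, 9.80 ± 1.35 in BE(2)C and 7.75 ± 2.07 in Kelly, higher by 2.81 ± 0.21 (adjusted p = 3.51e-06) and 2.49 ± 0.21 (adjusted p = 8.72e-06). FIGN, a microtubule-severing ATPase, was at 8.89 ± 0.575, 15.1 ± 1.12 and 10.4 ± 0.916, called higher in BE(2)C than in either other line. With gene totals only neither call of FIGN held (0.28 in BE(2)C vs SH-SY5Y, -0.19 in Kelly vs BE(2)C), nor did the first on deposited values (0.12). FIGN was also called in Kelly vs SH-SY5Y, lower on deposited values (-0.27) and higher with quantile normalization (0.37). RDX, radixin, which ties actin to the membrane, gave 4.39, 0.375 and 1.08 in SH-SY5Y, 3.29, 1.12 and 3.95 in BE(2)C and 5.46, 2.68 and 0.508 in Kelly. Libraries of one line differed more than the lines, and RDX was called in no comparison. ADAMTS8, a secreted metalloprotease, was listed at 0.124 in 1 SH-SY5Y library and at 0 in the other 8.

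The 3 enzymes and transporters split. YOD1, a deubiquitinase, was at 13.4 ± 1.60 in SH-SY5Y, 27.6 ± 1.83 in BE(2)C and 24.8 ± 1.29 in Kelly, and was called higher in both amplified lines. The call in Kelly was lost on deposited values (0.13, adjusted p = 0.355). GATM, which makes the precursor of creatine, was listed at 3.45, 5.19 and 4.59 in SH-SY5Y, 0.220, 0.396 and 0.328 in BE(2)C and 0, 0 and 0.103 in Kelly, lower in both amplified lines. SLC20A1 (chr2:112645857-112663827), a sodium-phosphate cotransporter, gave 123, 117 and 129 in SH-SY5Y, 83.97, 104 and 98.9 in BE(2)C and 62.2, 61.8 and 72.6 in Kelly. Its 3 lines were apart in that order. The log2 fold change of SLC20A1 was -0.37 ± 0.10 in BE(2)C vs SH-SY5Y (adjusted p = 0.0104), -0.90 ± 0.10 in Kelly vs SH-SY5Y (adjusted p = 5.30e-05) and -0.54 ± 0.10 in Kelly vs BE(2)C (adjusted p = 0.00149).

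**Figure D3:**
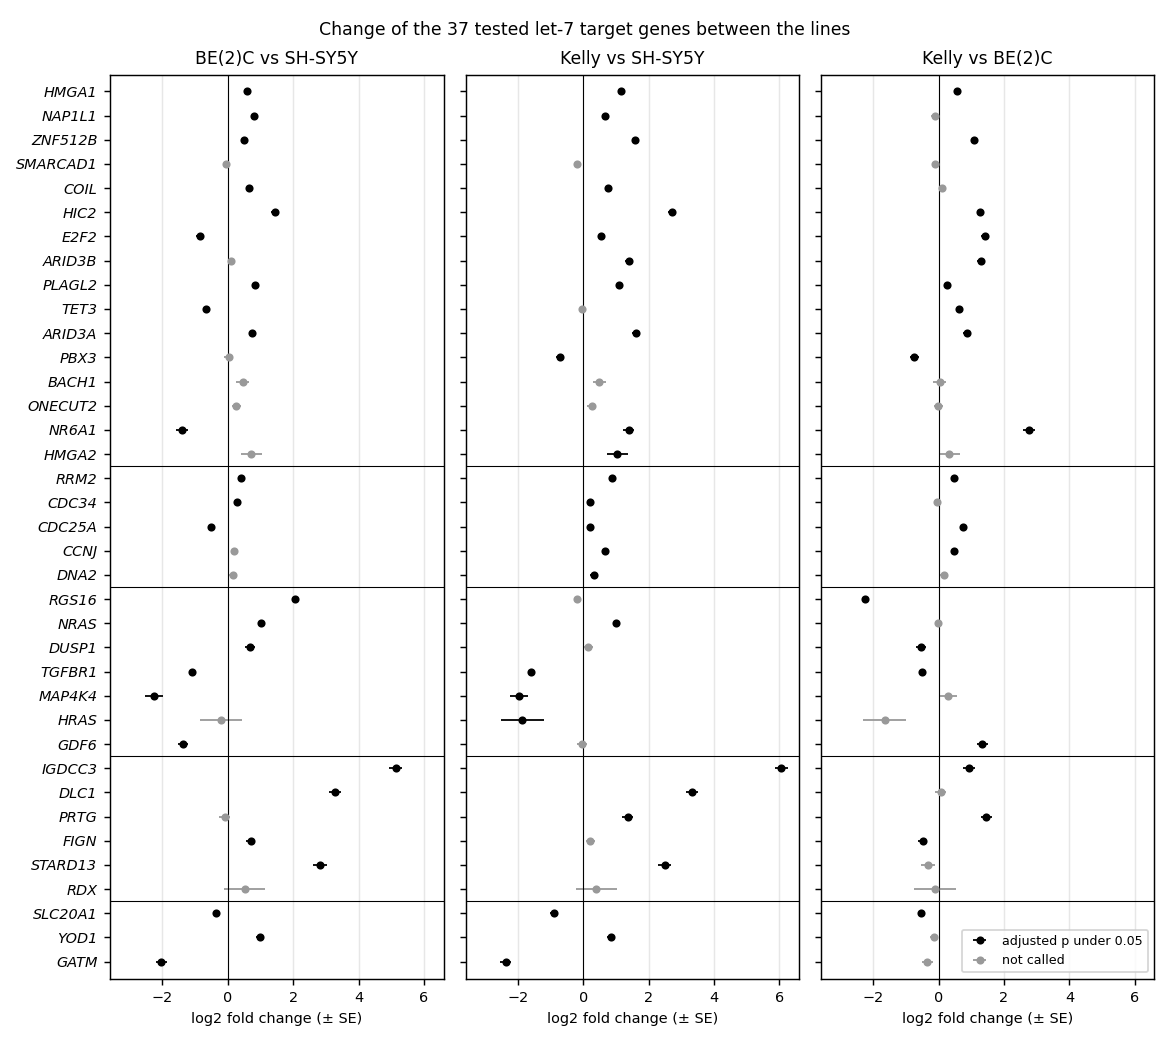
Log2 fold change of the 37 tested members in each comparison (points, with SE), grouped by role as in the plot of levels; black points are called and grey ones are not. IGDCC3 at 5.13 and 6.06 is the farthest right against SH-SY5Y, and MAP4K4 and GATM are on the left; NR6A1 changes sides between BE(2)C and Kelly.

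All 6 libraries of the amplified lines lay above all 3 of SH-SY5Y for 19 of the 37 tested members, where 19% of all tested genes did so. They lay below for 4 (TGFBR1, GATM, MAP4K4 and SLC20A1), where 20.4% of genes did so, and 14 overlapped. The first count fell to 10 with gene totals only (11.0% of genes) and to 6 on deposited values (5.98% of genes), and the second rose to 7 (29.3% of genes) and 11 (44.5% of genes). The ranks of the lines and the counts of calls that follow are those with the trimmed-mean scaling only. Kelly had the highest mean for 20 members (54.1%, against 31.4% of genes). BE(2)C had it for 9 (24.3%, against 32.4% of genes) and SH-SY5Y for 8 (21.6%, against 36.2% of genes). SH-SY5Y had the lowest mean for 23 (62.2%, against 35.0% of genes). The order Kelly, BE(2)C, SH-SY5Y from high to low was the most frequent, with 16 members, and BE(2)C, Kelly, SH-SY5Y came next with 7. Full orders were not counted over all genes, so these 2 counts have no background. Of the 37, 12 were called in all 3 comparisons (32.4%, against 21.1% of genes), 18 in 2 (48.6%, against 46.1%), 3 in 1 (8.11%, against 11.8%) and 4 in 0 (10.8%, against 21.0%); the last were BACH1, ONECUT2, SMARCAD1 and RDX.

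The members called the same way under all 5 scalings form a smaller group, and each other call was lost or turned under at least 1 scaling. In BE(2)C vs SH-SY5Y 7 were higher (18.9%, where all genes gave 11.6%): NRAS, IGDCC3, HIC2, STARD13, RGS16, DLC1 and YOD1. The 9 that were lower (24.3%, where all genes gave 26.3%) were CDC25A, TGFBR1, E2F2, NR6A1, GATM, MAP4K4, TET3, GDF6 and SLC20A1. In Kelly vs SH-SY5Y 10 were higher (27.0%, where all genes gave 10.1%): HMGA1, ARID3A, ARID3B, IGDCC3, HIC2, STARD13, NR6A1, ZNF512B, PRTG and DLC1. The 5 that were lower (13.5%, where all genes gave 25.7%) were TGFBR1, PBX3, GATM, MAP4K4 and SLC20A1. In Kelly vs BE(2)C 12 were higher (32.4%, where all genes gave 18.6%) and RGS16 alone was lower (2.70%, where all genes gave 13.4%).

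The let-7 seed match in the 3′ UTR is what many of these genes are known as targets for, so its presence among them is a description. The motif CTACCTC, searched on the sense strand of 1 GENCODE transcript a gene, occurred in 34 of 41 members (82.9%) and in 1228 of 12419 tested genes with a UTR (9.89%). Followed by A, as CTACCTCA, which contains the first motif, it occurred in 22 members (53.7%) and 3.74% of genes. In UTRs of at least 4000 bases 90.9% of members and 30.9% of genes had a match, and below 1000 bases 66.7% and 3.16%. CCNJ, DLC1, DUSP1, HRAS, MAP4K4, STARD13 and THBS1 had none in the transcript used. The UTR used was only 72 bases long for MAP4K4 and 394 for HRAS, so the lack of a match there says little. Among the members most raised in both amplified lines, DLC1 and STARD13 thus had none and IGDCC3 had 4.

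Members were then set out by their number of matches, with the trimmed-mean scaling only. Of the 15 with 2 or more matches, 11 were higher and 0 lower in Kelly vs SH-SY5Y, with a median log2 fold change of 0.85. The 16 tested members with 1 match had 8 higher and 4 lower, with a median of 0.27, and the 6 with none had 3 higher and 2 lower, with a median of 0.40. In Kelly vs BE(2)C these 15 had 8 higher and 1 lower, with a median of 0.73, against 0.04 for 1 match and -0.13 for none. The 3 groups had medians of 0.48, 0.22 and 0.43 in BE(2)C vs SH-SY5Y. Among the 130 tested genes outside the set with 2 or more matches, 29.2% were higher and 25.4% lower in Kelly vs SH-SY5Y, with a median of 0.04, against -0.01 for genes with no match. For those genes the median was -0.09 in BE(2)C vs SH-SY5Y and 0.13 in Kelly vs BE(2)C, against -0.03 and 0.02 with no match. In Kelly vs BE(2)C 34.6% of the 130 were higher and 23.8% lower. Genes outside the set with 1 match had 29.1% higher and 25.7% lower in Kelly vs SH-SY5Y. Those with no match had 28.1% and 27.6%. These pooled values mix UTR lengths. Outside the set, in UTRs of 1000 to 2000 bases, the 250 genes with 1 or more matches had 38.4% higher and 20% lower in Kelly vs SH-SY5Y, with a median of 0.19, where the 2516 with none had 28.9% and 28.3%, with a median of 0.0071. In shorter UTRs those medians were 0.02 and 0.01, from 2000 to 4000 bases 0.03 and -0.06, and in longer UTRs -0.04 and -0.06. The difference between match classes was not tested.

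**Figure D4:**
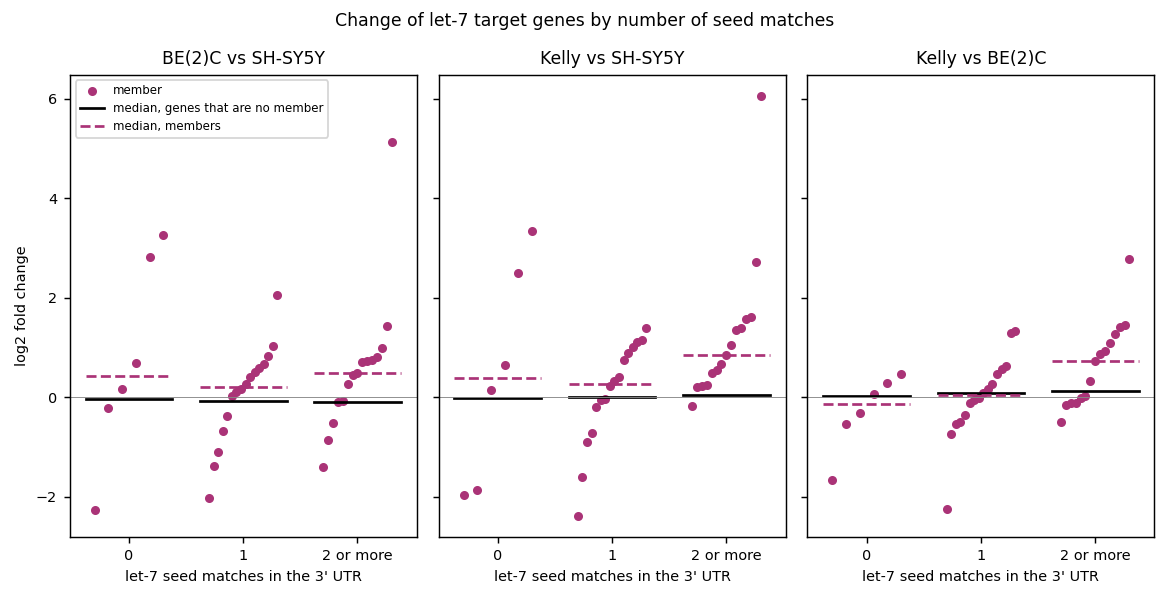
Log2 fold change of the 37 tested members (points, placed from low to high within a class) by number of let-7 seed matches in the 3′ UTR, for the 3 comparisons; dashed lines are medians of the members and black lines medians of tested genes outside the set. The dashed line of the class with 2 or more matches is at 0.85 in Kelly vs SH-SY5Y, while the black line of that class is at 0.04.

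Of the genes that make, process or use let-7, 17 of 20 names were tested. In BE(2)C vs SH-SY5Y 8 were higher (47.1%, where all genes gave 28.6%) and 5 lower (29.4%, genes 30.7%). For Kelly vs SH-SY5Y 7 were higher (41.2%, genes 28.1%) and 4 lower (23.5%, genes 27.2%), and in Kelly vs BE(2)C 6 were higher (35.3%, genes 27.9%) and 2 lower (11.8%, genes 24.6%). LIN28B, the block on let-7 maturation, was at 9.64 ± 0.537 scaled TPM in SH-SY5Y, 93.9 ± 7.70 in BE(2)C and 104 ± 3.65 in Kelly. Of the Argonaute genes, whose proteins carry let-7, AGO1 stood at 36.1 ± 0.568, 18.6 ± 1.51 and 61.2 ± 2.38, lowest in BE(2)C, and AGO2 at 56.8 ± 1.66, 89.5 ± 23.9 and 58.4 ± 1.76, with its highest mean there. DICER1, which cuts the let-7 precursor, stood at 23.5 ± 1.58, 45.7 ± 0.463 and 41.4 ± 0.691, called higher in both amplified lines with the trimmed-mean scaling.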

How the data were processed

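The deposited table holds log10 values per gene for 9 libraries, which from the values themselves are log10(TPM + 1), since the library sums after back-transformation are 966592 to 980009. Salmon 0.3.2, HISAT 0.1.6 and a build, GRCh38, are listed without their roles in the submitters' processing notes. The step from transcripts to genes and the use of strand are not given in the sources used here. Depth cannot be read from TPM, so no counting interval is given. Of 19837 entries, 92 are spike-ins, 11 markers and 28 date-like names, which left 19706 genes. The number of unused columns is 0.

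Values were back-transformed, rescaled to the gene total and divided by an unweighted trimmed-mean factor (0.758 to 1.17; 30% of log ratios and 5% of levels trimmed). limma 3.58.1 in R 4.3.3 was run with its trend option on log2(scaled TPM + 1), all 9 libraries in 1 fit, no block, after a filter that asked for a value of 1 in 3 or more libraries. A fold change on this scale understates the change of low genes. The fit was tested on simulated data.

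Some cell type markers are not reported here. The members, lists and alternatives were chosen with earlier results of these data known. Levels are given for all members; values in every library are given for HMGA2, for the 3 called members with the largest change in each direction in each comparison with a line mean of at least 10, and for members with libraries at or near 0. MYCN was named for line status, and LIN28B, AGO1, AGO2 and DICER1 were named after their values were seen. All 41 members matched GENCODE release 29. Seed matches were counted in the 3′ UTR of its principal transcript, the one with the longest UTR where several qualified. The alternatives were gene totals, deposited values, quantile normalization, mitochondrial genes out of the total, a pseudocount of 0.1, no filter or a filter of 5, 2 lines at a time, a replicate block, a 2-fold call and each library left out.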

Additional observations from a re-analysis of the deposited data

How the results depend on the processing

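In BE(2)C vs SH-SY5Y, gene totals only gave 8 of 37 members higher and 14 lower with a median log2 fold change of -0.0413. Of all tested genes 14.6% were higher and 46.6% lower there. Deposited values gave 7 members higher, 15 lower and -0.150, where 11.8% of all genes were higher and 50.8% lower. The members' median was 0.212 with quantile normalization, 0.207 once mitochondrial genes left the total and 0.259 with no filter. It ran from 0.272 to 0.423 with 1 library left out, lowest without SH-SY5Y replicate 2 and 0.277 without BE(2)C replicate 3. In Kelly vs SH-SY5Y, 10.1% of all genes were higher and 57.0% lower on deposited values. The members there had 10 higher, 15 lower and a median of -0.0392. That median was 0.423 with gene totals only, 0.424 with mitochondrial genes out, 0.632 with a pseudocount of 0.1, 0.405 with no filter and 0.666 with a filter of 5, and 0.530 to 0.594 with 1 library left out. In Kelly vs BE(2)C, gene totals only gave 1 member lower, where 13.7% of all genes were, and a median of 0.412. The members' median was -0.0404 on deposited values and 0.167 with mitochondrial genes out. Leaving out 1 library gave 0.0931 to 0.201, highest without Kelly replicate 3. A 2-fold call left 6 higher and 5 lower, 13 and 4, and 7 and 1 in the 3 comparisons, with the shares of all genes as given above. Libraries of both amplified lines lay above SH-SY5Y for 10 members and below for 7 with gene totals only, and for 6 and 11 on deposited values. The shares of all genes were 11.0% and 29.3% with gene totals only, and 5.98% and 44.5% on deposited values. Beyond what the scalings' own shift of all genes shows (by -0.40, -0.12 and 0.28 with gene totals only and by -0.31, -0.43 and -0.07 on deposited values), the cause was not tested. The share of all calls that were higher moved from 48.2%, 50.8% and 53.2% to 23.8%, 41.6% and 74.2% with gene totals only, to 18.9%, 15.1% and 43.2% on deposited values, and to 36.5%, 42.0% and 58.1% with mitochondrial genes out. The transcript with the longest UTR gave seed matches in 34 members as well.

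Members called in either setting turned direction only under scaling. In BE(2)C vs SH-SY5Y these were ARID3B (-0.334), CDC34 (-0.187), RRM2 (-0.0413) and PBX3 (-0.423) with gene totals only, ARID3B (-0.364), CDC34 (-0.288), DNA2 (-0.354), RRM2 (-0.150), PBX3 (-0.456) and ZNF512B (-0.0741) on deposited values, and CDC34 (-0.0153) with quantile normalization. In Kelly vs SH-SY5Y they were CDC25A (-0.452), CDC34 (-0.468), FIGN (-0.275), DNA2 (-0.332), E2F2 (-0.130), CCNJ (-0.0392), DUSP1 (-0.462) and NAP1L1 (-0.0316) on deposited values, and in Kelly vs BE(2)C CDC34 (0.272) and NRAS (0.312) with gene totals only. Direction and call held in every alternative for 19, 16 and 20 of 37 members in BE(2)C vs SH-SY5Y, Kelly vs SH-SY5Y and Kelly vs BE(2)C. With 1 library left out, calls were gained by BACH1 (BE(2)C vs SH-SY5Y without BE(2)C replicate 1, Kelly vs SH-SY5Y without BE(2)C replicate 1 or 3), SMARCAD1 (Kelly vs SH-SY5Y without BE(2)C replicate 1), RGS16 and ONECUT2 (Kelly vs SH-SY5Y without Kelly replicate 1), MAP4K4 (Kelly vs BE(2)C without BE(2)C replicate 2), HRAS (Kelly vs BE(2)C without BE(2)C replicate 3) and HMGA2 (BE(2)C vs SH-SY5Y without BE(2)C replicate 2, Kelly vs BE(2)C without BE(2)C replicate 3).

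Same-numbered libraries of different lines shared little deviation over all tested genes, with correlations of -0.0545 to 0.0266. These correlations cannot decide whether same-numbered libraries were handled together, and the labels do not say. With a replicate block, 17 members were higher and 9 lower in BE(2)C vs SH-SY5Y, where all genes gave 27.9% and 29.8%. Kelly vs SH-SY5Y had 20 and 5 (genes 27.1% and 26.3%) and Kelly vs BE(2)C 14 and 6 (genes 26.8% and 23.9%). The members' medians of 0.417, 0.557 and 0.0931 did not move. The block ended the calls of CDC25A, HRAS and DNA2 in Kelly vs SH-SY5Y and of PLAGL2 in Kelly vs BE(2)C.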
